A study of Rattus norvegicus with 24 samples.

Results

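Rxfp3, Oxtr, Gprc5a, Gpr158, Gpr6, Adra2a, Adora2b and Ffar1 encode G-protein-coupled receptors other than the receptor of GLP-1 itself. These 8 genes were taken by symbol from the 26404 genes of each table. They were selected on their measured change against Control in these same libraries, or because they are known to act in beta cells, so their levels and changes are given as a description, without a test. The cells were INS-1, an insulin-secreting line derived from a rat insulinoma. All groups were first held in medium with 3 mM glucose for 90 min and then returned to 11 mM glucose for the treatment. Cells received the incretin peptide GLP-1 at 100 nM, BMS-21, a compound named by its code, at 1 µM, or the DMSO vehicle (Control). RNA was sequenced after 1 h or 6 h, with 4 libraries in each of the 6 groups. Doses of the agents differed. The labels do not say whether the replicates were separate cultures, so every standard error below measures the spread between these libraries.

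G-protein-coupled receptors cross the membrane in a bundle of helices and pass a signal from outside the cell to heterotrimeric G proteins. Gs raises cyclic AMP through adenylyl cyclase, Gi and Go lower it, and Gq activates phospholipase C and releases calcium. In beta cells cyclic AMP and calcium amplify insulin secretion at raised glucose, whereas receptors coupled to Gi and Go restrain it. The GLP-1 receptor, Glp1r, acts mainly through Gs, and cyclic AMP made there activates protein kinase A, which phosphorylates the transcription factor CREB at cyclic AMP response elements (CREs). Among the genes described here, Gpr6 and Adora2b encode receptors coupled to Gs. Rxfp3 and Adra2a encode receptors coupled to Gi and Go, Oxtr and Ffar1 receptors coupled mainly to Gq, and Gprc5a and Gpr158 orphan receptors of class C.

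Libraries held 10667350 to 13148970 reads over the genes of the table. All 24 expressed Glp1r, at 1257 to 1876 normalised counts, with Control at 6 h lowest (1257 to 1338) and GLP-1 at 1 h (1707 to 1870) overlapping Control at 1 h (1743 to 1876). At 6 h both treated groups lay above Control, at 1514 to 1640 with GLP-1 and 1441 to 1571 with BMS-21. Of 15 beta-cell markers, 13 were matched and 12 had a mean of at least 10 counts, and their summed level was 190852 to 239975 per library. At 1 h that sum was 193613 to 207783 in Control, 200836 to 208004 with GLP-1 and 208736 to 218252 with BMS-21. At 6 h it was 190852 to 200873, 202371 to 216217 and 206387 to 239975, so that both treated groups lay above Control. Most of the sum was Ins1 (mean 106583 in Control and 126372 with GLP-1 at 6 h), and the markers did not move as a set. With each agent at 6 h, 5 of the 12 were higher and 4 lower at an adjusted p under 0.05 (limma, Benjamini-Hochberg). Of all genes tested, 31.7% passed with GLP-1 and 33.6% with BMS-21. Of 23 markers of other islet, exocrine, duct, stromal, endothelial and immune cells, 6 had a mean of at least 10 counts. These 23 summed to 912 to 1584 counts. Krt7, a keratin of duct epithelium, was the most abundant (556 to 1033), followed by Pdgfra (122 to 388) and Gcg (79.4 to 170). Other duct markers were lower, with means of 29.3 for Sox9, 9.00 for Cftr and 0.122 for Krt19. Amy2a3, Cela1 and Irx2 were at 0 in every library. The sum over these 23 was 1316 to 1499 in Control, 1427 to 1584 in GLP-1 and 1368 to 1496 in BMS-21 at 1 h. At 6 h it was 1033 to 1192, 984 to 1071 and 912 to 1057. The part of either marker list in the receptor levels was not tested. In bulk RNA, fewer expressing cells and less RNA per cell cannot be told apart. Within the groups, replicates 1 and 2 lay on the negative side and replicates 3 and 4 on the positive side of the main axis of variation, which held 25.8% of the variance of 10799 genes. The labels give no reason for that split, so values within each pair of replicates are given for Oxtr, Gprc5a, Adra2a and Adora2b.

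Sequence around the gene starts is shown because the GLP-1 receptor acts through cyclic AMP, and CREB binds a short element that can be read from the letters. RefSeq windows of the GRCr8 build, from 250 bases before to 50 bases after each start, were matched for 7 of the 8 genes, and Gprc5a was not matched. Both strands were searched for the full CRE, TGACGTCA, and for its shorter core, TGACG, which the full element also contains. The full element occurred in 1.83% of 33469 such windows of 300 bases and, among the receptors, in Gpr6 only, starting 93 bases before its start. The 200 bases before the Gpr6 start, read 5′ to 3′ on the gene's own strand with the CRE in capitals, are shown next.

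Gpr6, chr20:46075252-46075451 (-): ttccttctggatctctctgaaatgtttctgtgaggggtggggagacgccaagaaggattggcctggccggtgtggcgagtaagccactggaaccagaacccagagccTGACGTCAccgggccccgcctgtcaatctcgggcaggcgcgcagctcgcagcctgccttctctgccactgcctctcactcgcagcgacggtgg

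The shorter core occurred in 21.2% of all windows and in 4 of the 7 matched receptors: Gpr6, Rxfp3, Oxtr and Ffar1. Short stretches of 30 bases around the core follow for the genes that lacked the full element, with the core in capitals; CGTCA is TGACG on the opposite strand. The core lay 173 bases before the start in Rxfp3, 166 in Oxtr and 23 in Ffar1.

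Rxfp3, chr2:61731962-61731991 (-): ctactctaaatcCGTCAaaacggatgctga

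Oxtr, chr4:147170648-147170677 (-): cgggatttttacCGTCAccaccgagaaatc

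Ffar1, chr1:95239695-95239724 (-): caagaggaacagTGACGagaggcacccact

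The RefSeq models of Rxfp3 and Adra2a begin at a start codon, so their windows can hold untranslated or intronic rather than promoter sequence. Windows of Adra2a, Adora2b and Gpr158 held neither form. An AP-1 site, TGANTCA, occurred in 7.33% of all windows, and the NR4A element AAAGGTCA in 1.43%, and neither occurred in the 7 matched receptors. These are matches of letters, and no measurement of binding was used here.

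Rxfp3, the receptor of the insulin-family peptide relaxin-3, was higher with both agents at 1 h and higher again at 6 h. At 1 h its level was 29.6, 29.8, 27.5 and 32.3 normalised counts in Control replicates 1 to 4, 90.1, 79.0, 74.2 and 88.6 with GLP-1, and 94.0, 66.7, 62.4 and 93.9 with BMS-21. Later, at 6 h, it was 35.9, 39.2, 25.4 and 39.6 in Control, 342, 328, 260.4 and 302 with GLP-1, and 336, 356, 317 and 303 with BMS-21. Levels here are reads per gene on a scale shared by all 24 libraries, whereas each log2 change below was fitted on the table the authors normalised for that pair of groups. Every treated library lay above every Control library of its time, and at 6 h the lowest treated library was still more than any treated library at 1 h. The log2 change against Control was 1.45 ± 0.14 (SE, n = 4 per group) with GLP-1 and 1.36 ± 0.16 with BMS-21 at 1 h. By 6 h it was 3.12 ± 0.13 and 3.21 ± 0.12, which is 8.69-fold and 9.26-fold. BMS-21 libraries at 1 h fell into a high pair, replicates 1 and 4, and a low pair, replicates 2 and 3.

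**Figure D1:**
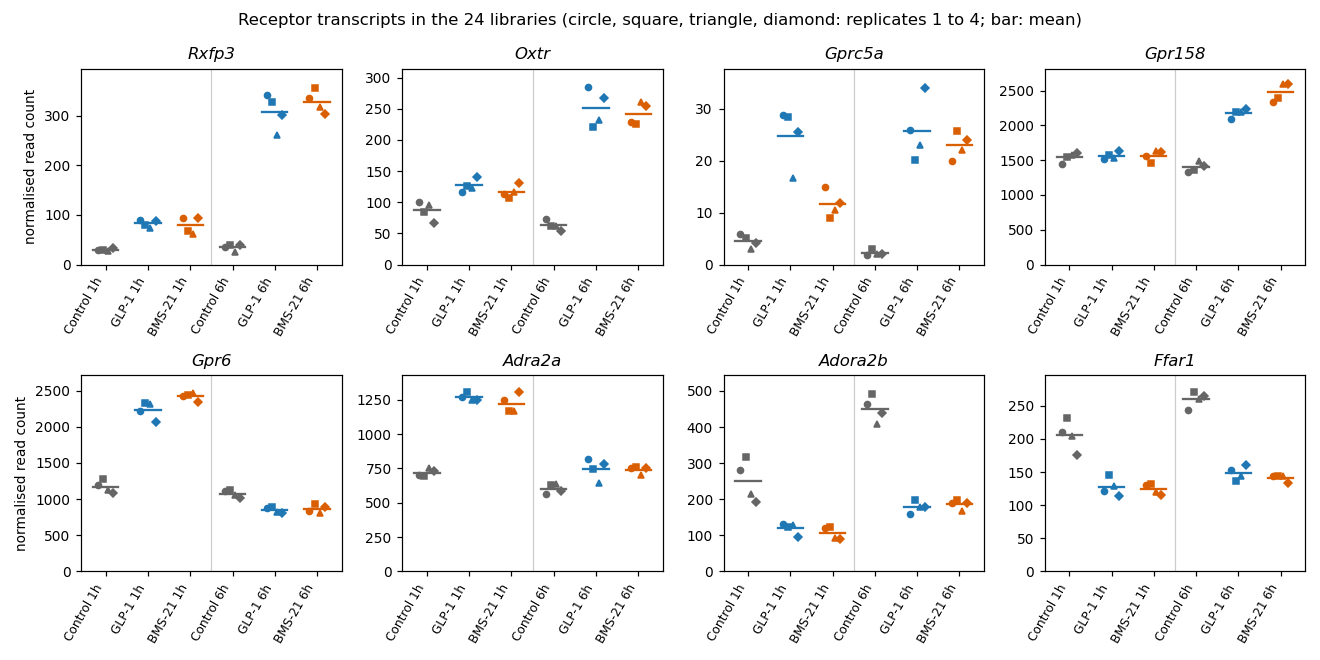
Normalised read count (linear axis from 0) of each receptor gene in the 24 libraries, by group, with a symbol for each replicate and a bar at the group mean. Rxfp3, Oxtr and Gpr158 were highest in treated cells at 6 h, Gprc5a had like levels with GLP-1 at both times and with BMS-21 at 6 h, Gpr6 and Adra2a in treated cells at 1 h, and Adora2b and Ffar1 in Control at 6 h.

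Oxtr, the oxytocin receptor, was also higher with both agents at 1 h and higher again at 6 h, by smaller amounts than Rxfp3. Control replicates 1 to 4 held 101, 84.4, 96.1 and 66.8 normalised counts at 1 h, against 117, 127, 123 and 141 with GLP-1 and 113, 107, 116 and 131 with BMS-21. At 6 h Control held 73.7, 61.2, 62.5 and 54.4, GLP-1 285, 220.3, 232 and 268, and BMS-21 228, 226, 260.1 and 254. No treated library overlapped Control at either time, although the gap at 1 h was narrow, from 101 in the highest Control library to 107 in the lowest BMS-21 library. The log2 change was 0.56 ± 0.12 with GLP-1 and 0.44 ± 0.12 with BMS-21 at 1 h, and 1.98 ± 0.11 and 1.93 ± 0.10 at 6 h. Its size at 1 h differed between the pairs of replicates. With GLP-1 it was 0.40 in replicates 1 and 2 and 0.71 in replicates 3 and 4, and with BMS-21 it was 0.26 and 0.61. At 6 h the same pairs gave 1.89 and 2.08 with GLP-1 and 1.74 and 2.12 with BMS-21.

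Gprc5a, an orphan receptor known as a retinoic acid-induced gene, was scarce, with few reads in Control cells. Its reads summed over 4 libraries were 18 in Control, 99 with GLP-1 and 45 with BMS-21 at 1 h, and 9, 102 and 95 at 6 h. As normalised counts, replicates 1 to 4 at 1 h had 5.9, 5.1, 2.9 and 4.2 in Control, 28.8, 28.4, 16.7 and 25.5 with GLP-1, and 15.0, 9.0, 10.6 and 11.9 with BMS-21. Corresponding levels at 6 h were 1.8, 3.0, 2.0 and 2.0 in Control, 26.0, 20.2, 23.0 and 34.0 with GLP-1, and 20.0, 25.7, 22.1 and 24.1 with BMS-21. Treated and Control libraries did not overlap at either time, and at 1 h the BMS-21 libraries lay between Control and GLP-1 without touching either. The ratio of summed reads to Control at 1 h was 5.49 with GLP-1, with an exact 95% counting interval of 3.30 to 9.65, and 2.57 with BMS-21 (1.46 to 4.72). By 6 h it had become 11.7 with GLP-1 (5.95 to 26.4) and 10.5 with BMS-21 (5.32 to 23.8). These intervals cover counting error only, not the spread between libraries, and Control libraries at 6 h each held 3 reads or fewer. The receptors were picked with results of these data known, so the intervals against Control are no test of the rise. Fitted log2 changes were 2.22 ± 0.29 with GLP-1 at 1 h, 3.06 ± 0.29 with GLP-1 at 6 h and 2.93 ± 0.30 with BMS-21 at 6 h. With GLP-1 at 6 h the change was 2.83 in replicates 1 and 2 and 3.29 in replicates 3 and 4. Fitted changes understate the ratios of reads because 1 count was added before the logarithm, and at 1 h with BMS-21 the gene lay under the mean of 10 counts that a fit required. In the fits against Control that it passed, only the treated libraries carried it over that mean, since Control averaged 4.5 counts at 1 h and 2.2 at 6 h. Its fitted changes thus exist only because the gene was high with treatment, and they are no further support for the rise.

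Gpr158, an orphan receptor that binds complexes of RGS proteins with Gnb5, was unlike these in that the groups overlapped at 1 h. Its 1 h level was 1445, 1552, 1577 and 1601 normalised counts in Control replicates 1 to 4, 1517, 1572, 1536 and 1626 with GLP-1, and 1555, 1453, 1638 and 1612 with BMS-21. By 6 h Control had 1327, 1360.3, 1486 and 1418, GLP-1 2095, 2190.3, 2198 and 2238, and BMS-21 2338, 2400.3, 2594 and 2591. At 6 h the 3 groups were fully separated, in the order Control, GLP-1 and BMS-21. The log2 change at 1 h was 0.02 ± 0.04 with either agent. Its value at 6 h was 0.65 ± 0.04 with GLP-1 and 0.83 ± 0.04 with BMS-21, which is 1.56-fold and 1.77-fold. The RefSeq model of Gpr158 overlaps Rps8l1, a long noncoding RNA, a small nucleolar RNA and a pseudogene, and the library kit does not mark strand, so some of these reads may belong to them. No other member overlaps a gene in that annotation.

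Gpr6, an orphan receptor whose activity raises cyclic AMP without an added ligand, was higher than Control at 1 h and lower at 6 h. At 1 h its level was 1192, 1277, 1121 and 1086 normalised counts in Control replicates 1 to 4, 2215, 2334, 2319 and 2070.5 with GLP-1, and 2425, 2441, 2472 and 2341 with BMS-21. The 6 h levels were 1107, 1119, 1051 and 1015 in Control, 874, 887, 821 and 808 with GLP-1, and 838, 927, 802 and 896 with BMS-21. The treated libraries were all above Control at 1 h and all below it at 6 h. The log2 change at 1 h was 0.94 ± 0.05 with GLP-1 and 1.05 ± 0.05 with BMS-21, or 1.92-fold and 2.08-fold. At 6 h it was -0.34 ± 0.05 and -0.31 ± 0.05, that is 1.26-fold and 1.24-fold lower than Control. The window of Gpr6 shown above carries the full CRE, and whether that element has a part in either change was not tested.

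Adra2a, the alpha-2A adrenergic receptor through which catecholamines inhibit insulin secretion, was raised most at 1 h and less at 6 h. Its levels at 1 h were 699.8, 695, 753 and 729 normalised counts in Control replicates 1 to 4, 1270.3, 1307, 1246 and 1253 with GLP-1, and 1249, 1169, 1166 and 1309.7 with BMS-21. At 6 h Control had 565, 631, 635 and 584, GLP-1 821, 745, 644 and 785, and BMS-21 755, 762, 701 and 751. All treated libraries were above Control at both times, but at 6 h the lowest GLP-1 library, replicate 3 at 644, was close to the highest Control library at 635. The log2 change was 0.82 ± 0.04 with GLP-1 and 0.77 ± 0.05 with BMS-21 at 1 h, or 1.77-fold and 1.70-fold. It was 0.31 ± 0.06 and 0.30 ± 0.05 at 6 h, or 1.24-fold and 1.23-fold. Within replicates 1 and 2 the GLP-1 change at 6 h was 0.39, and within replicates 3 and 4 it was 0.23.

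**Figure D2:**
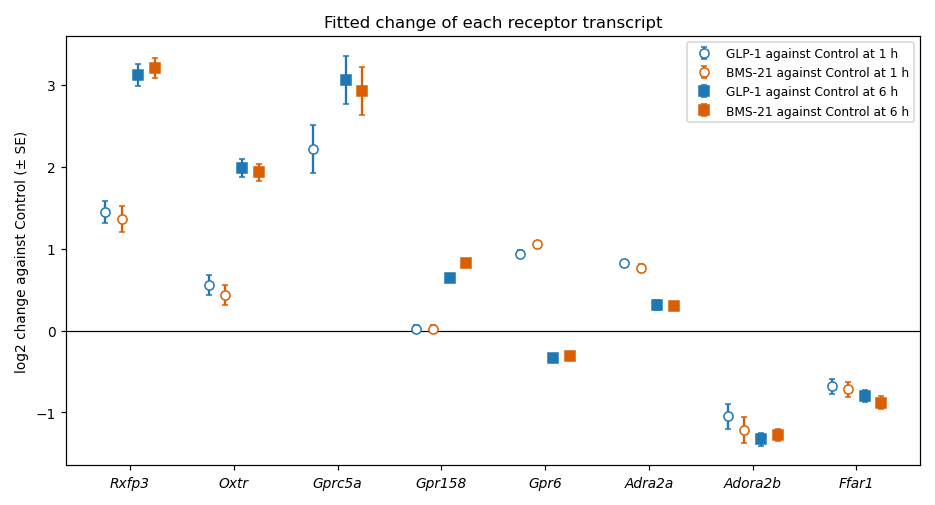
Fitted log2 change of each receptor gene against Control (vertical axis, bars ± SE, n = 4 per group), with GLP-1 in blue and BMS-21 in orange, open circles at 1 h and filled squares at 6 h. Gpr6 crosses the zero line between the times, from 0.94 and 1.05 at 1 h to -0.34 and -0.31 at 6 h, while Rxfp3 reaches 3.12 and 3.21.

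Adora2b, the A2B adenosine receptor, was lower than Control with both agents at both times. At 1 h it measured 279.9, 317, 215 and 192 normalised counts in Control replicates 1 to 4, 130.4, 124, 128 and 94.7 with GLP-1, and 121, 122, 93.1 and 88.5 with BMS-21. At 6 h Control had 463, 492, 408 and 440.2, GLP-1 158, 199, 177 and 179.7, and BMS-21 189, 197, 167 and 189. Every treated library was below every Control library of its time, and Control itself was higher at 6 h than at 1 h. The log2 change was -1.05 ± 0.15 with GLP-1 and -1.22 ± 0.16 with BMS-21 at 1 h, that is 2.07-fold and 2.32-fold lower. At 6 h it was -1.33 ± 0.08 and -1.28 ± 0.07, or 2.51-fold and 2.42-fold lower. Control at 1 h was uneven, since replicates 1 and 2 lay above replicates 3 and 4, and the GLP-1 change there was -1.22 in the former pair and -0.88 in the latter.

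Ffar1, the long-chain fatty acid receptor also called GPR40 that amplifies glucose-stimulated insulin secretion, was also lower with both agents. Control replicates 1 to 4 at 1 h had 211, 232, 205 and 175 normalised counts, GLP-1 121, 146, 129 and 114, and BMS-21 130.0, 131, 120.0 and 116. At 6 h the values were 244, 271, 261 and 265 in Control, 153, 136, 145 and 161 with GLP-1, and 143, 144, 144 and 133 with BMS-21. Again no treated library reached the Control range. The log2 change was -0.68 ± 0.10 with GLP-1 and -0.72 ± 0.09 with BMS-21 at 1 h, or 1.61-fold and 1.64-fold lower. At 6 h it was -0.80 ± 0.08 and -0.88 ± 0.07, or 1.74-fold and 1.84-fold lower.

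Counting all members with GLP-1 at 1 h, 5 of 8 were higher than Control without overlap, 2 were lower and Gpr158 overlapped. Of all 12715 genes tested there, 6.02% were higher without overlap and 4.84% lower, 10.9% together. The same counts of members held with BMS-21 at 1 h, beside 5.65% and 4.99% of 12697 genes, 10.6% together. Gprc5a, 1 of the 5 higher members, was under the filter there and is not among those genes. Elsewhere against Control it passed the filter only through its treated libraries. After 6 h, 5 members were higher and 3 lower with each agent. The background was then 15.6% higher and 15.1% lower of 12641 genes with GLP-1, 30.6% together, and 16.2% and 15.9% of 12640 with BMS-21, 32.2% together. Since the genes were picked for having moved in these comparisons, nothing is read from their counts.

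Control cells also differed between the times, which lie at different intervals after the return to 11 mM glucose, and 48.1% of 12695 genes did not overlap between 1 h and 6 h, while 53.9% passed an adjusted p of 0.05 (limma, Benjamini-Hochberg). Of the receptors, Adora2b and Ffar1 were higher at 6 h without overlap, by 0.87 ± 0.13 and 0.34 ± 0.09 on the log2 scale. Adra2a was lower without overlap, at -0.25 ± 0.05. Values overlapped for the other 5, with changes of 0.21 ± 0.13 for Rxfp3, -0.45 ± 0.11 for Oxtr, -0.78 ± 0.26 for Gprc5a, -0.12 ± 0.05 for Gpr6 and -0.14 ± 0.04 for Gpr158. Each response above was therefore set against Control of its own time.

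The response at 1 h was then subtracted from that at 6 h. Responses grew upward for Rxfp3, by 1.67 ± 0.19 with GLP-1 and 1.85 ± 0.19 with BMS-21, and for Oxtr, by 1.43 ± 0.16 and 1.497 ± 0.16. Gpr158 gained 0.62 ± 0.06 and 0.81 ± 0.06. For Gprc5a the difference was 0.84 ± 0.36 with GLP-1, whose own mean level was 24.8 at 1 h and 25.8 at 6 h, and 1.72 ± 0.36 with BMS-21. Its Control reads were 18 at 1 h and 9 at 6 h, a ratio of 2.08 with a counting interval of 0.886 to 5.25. Gprc5a entered these fits over 24 libraries, that of Control over time included, only through its treated libraries. The difference was negative for Gpr6, at -1.28 ± 0.07 with GLP-1 and -1.36 ± 0.07 with BMS-21, and for Adra2a, at -0.51 ± 0.08 and -0.47 ± 0.08. The smallest differences in size were those of Adora2b, at -0.28 ± 0.19 and -0.06 ± 0.19, and of Ffar1, at -0.12 ± 0.12 and -0.16 ± 0.12. These differences describe the chosen genes. Across all 12695 genes, 17.8% with GLP-1 and 22.2% with BMS-21 passed an adjusted p of 0.05 for this difference (limma, Benjamini-Hochberg).

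The agents, at their different doses, were next set against each other at the same time. Among 12672 genes at 1 h, 1.24% were higher and 1.27% lower with BMS-21 without overlap, 2.51% together. Among 12629 genes at 6 h the shares were 1.81% and 2.03%, 3.84% together. At 1 h Gpr6 was higher with BMS-21 without overlap, by 0.12 ± 0.04 on the log2 scale, with a 95% interval of 0.03 to 0.20. Gprc5a was lower with BMS-21 without overlap at 1 h, by a log2 difference of -1.02 ± 0.24 (interval -1.53 to -0.52), and its summed reads with GLP-1 were 2.14 times those with BMS-21 (1.49 to 3.11). Within replicates 1 and 2 that log2 difference was -1.22, and within replicates 3 and 4 it was -0.83. By 6 h the Gprc5a libraries overlapped, and that ratio was 1.11 (0.834 to 1.49). At 6 h Gpr158 was higher with BMS-21 without overlap, by 0.18 ± 0.04 (interval 0.10 to 0.27).

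The other receptors overlapped between agents at both times, and the interval of each difference bounds what could have been missed. For Rxfp3 it ran from -0.37 to 0.20 at 1 h and from -0.08 to 0.26 at 6 h, and for Oxtr from -0.32 to 0.08 and from -0.23 to 0.13. For Adora2b the limits were -0.43 and 0.09 at 1 h and -0.13 and 0.24 at 6 h. Ffar1 gave -0.23 to 0.17 and -0.25 to 0.10, and Adra2a -0.14 to 0.04 and -0.14 to 0.13. Across all genes, in fits without the replicate number as a block, limma called 0, or 0.00%, at 1 h at an adjusted p of 0.05, with 432 at an unadjusted p under 0.05 and 0 by edgeR or DESeq2. Its calls at 6 h were Hspa12a, an Hsp70-family gene that was lower with BMS-21, and Ccny, a cyclin that was higher, both named after their values were seen. They make up 0.0158% of the genes tested, 0.00792% in each direction, while edgeR called 0 and DESeq2 18. With the block limma called 85 genes at 1 h and 217 at 6 h. As the receptors described here were picked with results of these data known, neither a p nor a call is given for them.

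**Figure D3:**
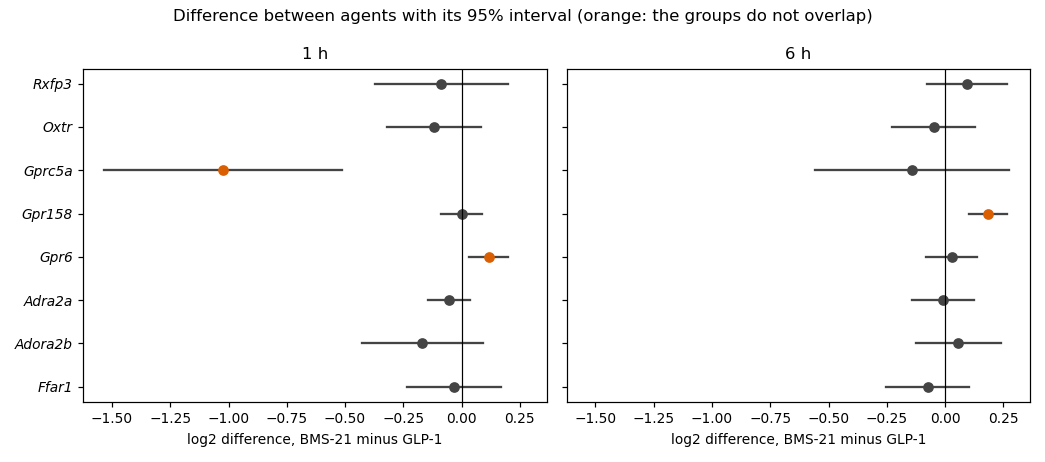
Log2 difference of each receptor gene between agents, BMS-21 minus GLP-1 (horizontal axis), at 1 h and 6 h, with points at the estimate, lines for the 95% interval and orange where the 4 libraries of each agent do not overlap. Gprc5a at 1 h lies at -1.02, whereas Gpr6 at 1 h and Gpr158 at 6 h lie at 0.12 and 0.18.

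The authors' deposited tables give fold changes for the same genes. With GLP-1 at 1 h the authors' deposited table lists a log2 change of 1.39 for Rxfp3 and 0.53 for Oxtr. The authors' deposited table also lists 0.93 for Gpr6 and -1.04 for Adora2b, all near the values fitted here. With GLP-1 the authors' deposited tables have Gprc5a at 1.86 at 1 h and 2.65 at 6 h, against fitted values of 2.22 and 3.06. For BMS-21 at 1 h the authors' deposited table has 0.60 for Rxfp3, 0.25 for Oxtr and -0.75 for Adora2b, all nearer 0 than the fitted 1.36, 0.44 and -1.22. At 6 h with BMS-21 the authors' deposited table has 2.83 for Rxfp3 and 1.32 for Gprc5a, against fitted values of 3.21 and 2.93. For Gpr6 at 1 h the gap was smaller. The authors' deposited tables give Gpr6 there as 0.93 with GLP-1 and 0.98 with BMS-21, against fitted values of 0.94 and 1.05. In the authors' deposited table that compares the agents at 1 h, Gprc5a stands at 0.06 for GLP-1 over BMS-21, where the fitted difference for BMS-21 minus GLP-1 was -1.02. How the deposited values came to differ from the fitted ones was not tested, and the agents were compared here through the counts.

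**Figure D4:**
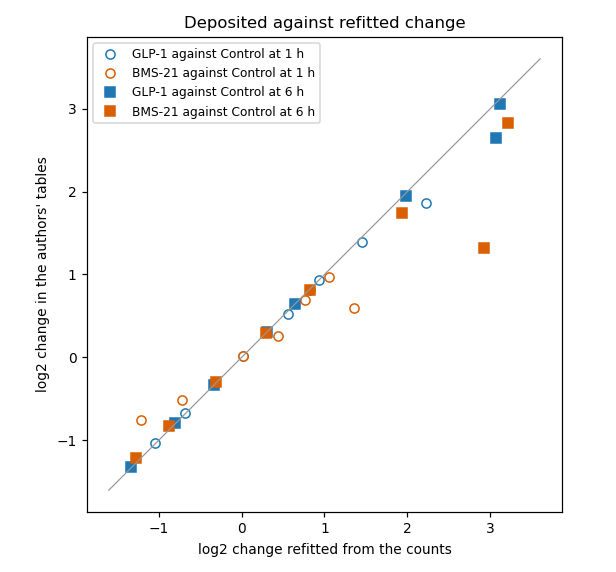
Log2 change in the authors' deposited tables (vertical axis) against the change refitted from the counts (horizontal axis) for each receptor gene and each comparison with Control, with a line of equality. Points for BMS-21 at 1 h lie nearer to 0 than the line, for Rxfp3 at 0.60 deposited against 1.36 refitted.

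To place these genes among their kind, 286 other G-protein-coupled receptors were listed by coupling class, of which 244 were matched and 74 to 76 had a mean of at least 10 counts in a comparison with Control. Here rose and fell mean an adjusted p under 0.05 over all genes tested (limma, Benjamini-Hochberg). At 1 h, 9 rose and 4 fell of 76 with GLP-1, beside 4.17% and 2.41% of all genes tested (6.58% together). With BMS-21 at 1 h, 7 rose and 5 fell of 76, beside 3.54% and 2.37% (5.91% together). At 6 h, 13 rose and 22 fell of 74 with GLP-1, beside 16.2% and 15.6% (31.7% together), and 13 rose and 25 fell of 75 with BMS-21, beside 16.8% in each direction (33.6% together). Their median log2 change was -0.01 at 1 h and -0.06 at 6 h with each agent, and that of all genes tested was within 0.01 of 0 in each comparison. With the block the counts at 1 h were 10 and 9 with GLP-1 and 11 and 8 with BMS-21.

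Receptors listed as coupled to Gi and Go, the class of Rxfp3 and Adra2a, gave 5 higher and 3 lower of 24 with GLP-1 at 1 h and 6 and 7 of 24 at 6 h. With BMS-21 they gave 4 and 4 of 24 and then 5 and 8 of 25. With the block the counts at 1 h were 6 and 4 with GLP-1 and 6 and 6 with BMS-21. Counted in this list was also Cxcr7, a scavenging chemokine receptor whose coupling to Gi is not established. It rose by 2.26 ± 0.08 with GLP-1 (limma adjusted p = 6.5e-17) and by 2.13 ± 0.08 with BMS-21 (adjusted p = 2.0e-15) on the log2 scale at 1 h. The somatostatin receptor Sstr1 rose by 1.89 ± 0.07 with each agent at 1 h, and Npy1r, a neuropeptide Y receptor, by 1.71 ± 0.13 and 1.47 ± 0.12. Grm2, a metabotropic glutamate receptor, fell by 1.22 with GLP-1 and by 1.27 with BMS-21 at 6 h. Ffar3, a short-chain fatty acid receptor, fell by 0.89 and by 0.86 at 6 h (adjusted p = 3.1e-07 and 1.3e-06).

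Receptors coupled to Gq, the class of Oxtr and Ffar1, gave 0 higher and 1 lower of 12, P2ry1, at 1 h with each agent. At 6 h they gave 3 and 2 of 12 with GLP-1 and 4 and 2 of 12 with BMS-21. P2ry1, a receptor of ADP, fell by 0.64 with GLP-1 and by 0.61 with BMS-21 at 1 h, and the muscarinic receptor Chrm3 fell by 0.85 and by 0.80 at 6 h. Of the Gs class, to which Gpr6 and Adora2b belong, 3 others were measured against Control, and 0 passed in any comparison except 1 lower with BMS-21 at 6 h, Calcrl, the calcitonin receptor-like receptor (log2 change -0.56 ± 0.21, limma adjusted p = 0.046), named after its value was seen. Its groups overlapped and the call was lost in 5 of the 8 fits that left out a library. Orphan and adhesion receptors gave 4 higher and 0 lower of 37 with GLP-1 at 1 h and 4 and 13 of 35 at 6 h, against 3 and 0 of 37 and 4 and 14 of 35 with BMS-21. With the block the counts at 1 h were 4 higher and 4 lower with GLP-1 and 5 and 1 with BMS-21. Gprc5b, a relative of Gprc5a, rose by 0.46 ± 0.06 and 0.43 ± 0.06 at 1 h.

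Below the receptors, G-protein subunits, receptor kinases, arrestins and phospholipases gave 0 of 35 past the threshold with either agent at 1 h, and with the block 0 with GLP-1 and 2 with BMS-21. At 6 h, 4 rose and 8 fell with GLP-1 and 4 rose and 11 fell with BMS-21. Plcb1, a phospholipase C acting below Gq, fell by 0.75 with GLP-1 and by 0.84 with BMS-21 at 6 h (limma adjusted p = 3.2e-08 and 1.8e-08). Ramp2, a receptor-activity-modifying protein, rose by 0.70 ± 0.11 and 0.78 ± 0.10, whereas Ramp1 of the same family fell by 0.58 and by 0.85. Ligands of the members and their direct partners gave 1 of 15 with GLP-1 at 1 h, Slc18a2, a vesicular monoamine transporter named after its value was seen, and 0 of 16 with BMS-21. At 6 h they gave 4 higher and 6 lower of 14 with GLP-1 and 3 and 4 of 14 with BMS-21. Maob, which degrades amines, fell by 0.58 and by 0.66, and Entpd3, which breaks down extracellular nucleotides upstream of adenosine, rose by 0.34 ± 0.04 with each agent. Rgs9, of the RGS family that Gpr158 binds, rose by 0.27 ± 0.04 and 0.37 ± 0.05 at 6 h, whereas Rgs11 of the same family fell by 0.29 and by 0.23.

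Across the 24 libraries, the genes most like each receptor were sought among 9361 others with a mean of at least 50 counts, by Pearson correlation of log2 levels. The libraries share their 6 groups, so any gene with the same order of groups scores high, and the values are a description. Rxfp3 was most like Ccnd1, which encodes cyclin D1 (r = 0.98), and the hormone gene Stc1 (r = 0.98). Oxtr was most like Ptprn, a dense-core granule protein (r = 0.98), and the fibronectin gene Fn1 (r = 0.96). Gpr158 was closest to the proton-pump subunit gene Atp6v0a1 (r = 0.98) and the synaptic vesicle gene Sv2c (r = 0.98), and Gprc5a to Ttpal and Mest (r = 0.93 for each). Gpr6 was closest to Tp53rk (r = 0.97) and Tiparp (r = 0.96), and Adra2a to the small GTPase gene Gem (r = 0.99) and the nuclear receptor gene Nr4a1 (r = 0.98). Adora2b and Ffar1 shared both of their nearest genes, Fam46c (r = 0.96 and 0.95) and the alpha-arrestin gene Arrdc4 (r = 0.94 and 0.96). Between members, r was 0.95 for Rxfp3 and Oxtr, 0.94 for Adora2b and Ffar1, and 0.90 for Gpr158 with Rxfp3 and with Oxtr. It was 0.87 for Gpr6 and Adra2a and -0.87 for Adora2b and Adra2a.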

How the data were processed

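RNA of INS-1 cells was prepared with the TruSeq RNA v2 kit and sequenced, per the labels' protocols. TopHat2 2.0.12, Bowtie2 2.2.3.0, SAMtools 0.1.19.0, Subread, DESeq and DESeq2 1.6.3 and the build Rnor_5.0 are named in the submitters' processing notes, without their roles. Each of the 6 deposited tables holds 8 libraries of a pair of groups as a signal, which is reads per gene divided by a size factor for each library by the authors. Whole reads were recovered from 100.0% of values within 0.001 read and were equal wherever a library stood in several tables. The authors' log2 fold changes in the deposited tables were set side by side with the refitted ones only. In the deposited tables that compare the agents, their sign is GLP-1 over BMS-21, and all differences here are BMS-21 minus GLP-1. The authors' p-values and Wald statistics (a score) in the deposited tables were not used.

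The fit was limma 3.58.1 (trend, robust, R 4.3.3) on log2(normalised count + 1) within each table, restricted to genes averaging 10 or more, with Benjamini-Hochberg adjustment over all genes tested and a threshold of 0.05, and with no block. Comparisons between times used the recovered reads of all 24 libraries scaled by TMM. Alternatives were edgeR 4.0.16 and DESeq2 1.42.0 on recovered reads, pseudocounts of 0.5 and 5, other filters and scalings, the replicate block and leaving out each library. Scripts were tested on simulated data. Same-numbered replicates deviated together in all 24 pairs tested over genes with a mean of at least 50 (correlation 0.12 to 0.41). Over genes with a mean of at least 10 the range was 0.07 to 0.24, with 2 pairs at or under 0.1. The same libraries recur across these pairs, and replicates with unlike numbers were not compared. These correlations therefore cannot tell pairing by number from the split between replicates on the main axis of variation. Sample names in the labels number the libraries in consecutive sets, each holding the same-numbered replicate of every group. The labels do not say whether a set was cultured or handled together. Whether the numbers pair the samples was not tested, and the block was used as an alternative only. The standard errors and intervals of the fitted changes are those without the block.

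The members and the gene lists were chosen with earlier results of these data known. Named genes besides the members were, for each list and comparison with Control, up to 4 with the smallest adjusted p among genes with a mean of at least 50 whose groups did not overlap, a selection of which is printed, and the 2 genes most like each member. Of the 26404 genes, 18306 had a symbol. Promoter sequences are from RefSeq on GRCr8, which is not the authors' build.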

Additional observations from a re-analysis of the deposited data

Results flagged for a closer look

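Gpr6 stood above Control in every treated library at 1 h and below Control in every treated library at 6 h. Its log2 change was 0.94 with GLP-1 and 1.05 with BMS-21 at 1 h, and -0.34 and -0.31 at 6 h. The reversal itself was not tested, since the gene had been picked for its movement.

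In 2 of 48 sets of 4 libraries (8 receptors in 6 groups), 1 library stood farther from its neighbours than chance gives in about 1 of 20 sets. That is no more sets than chance would give. Gprc5a in Control at 6 h was highest in replicate 2, at 3.01 normalised counts, where its 4 libraries held 9 reads in all, 2 or 3 in each. Ffar1 with BMS-21 at 6 h was lowest in replicate 4, at 133, while the other 3 libraries lay at 143 to 144.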

How the results depend on the processing

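Each change of a receptor against Control was refitted under other settings. Of 617 refits of 31 values, 612 kept the sign, and the other 5 were all of Gpr158 at 1 h, whose change is near 0. For every other value the treated and Control libraries did not overlap. Leaving out libraries, adding the block or changing the pseudocount could then not turn the sign, so the kept signs are no support for these changes. In 14 refits the value moved by more than the spread between libraries: 10 of Gprc5a, whose fitted change at 6 h ran from 2.09 to 3.56 with GLP-1 and from 1.98 to 3.39 with BMS-21, and 4 within pairs of replicates for Adra2a with GLP-1 at 1 h (0.89 and 0.76) and Oxtr with BMS-21 at 6 h (1.74 and 2.12).

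With the replicate block, which pairs libraries by number, the count of all genes past the threshold went from 837 to 1513 for GLP-1 and from 751 to 1551 for BMS-21 at 1 h, and between agents from 0 to 85 at 1 h and from 2 to 217 at 6 h. It left the fitted log2 change of each member as it was. edgeR with the replicate block, chosen after seeing the data, gave 1469, 1526, 87 and 187. Replicates 3 and 4 alone, also added afterwards, gave 558 for GLP-1 and 497 for BMS-21 at 1 h. Between agents at 6 h the count was 1 with a mean of at least 50, 0 with edgeR, 18 with DESeq2, 37 in replicates 1 and 2 and 39 in replicates 3 and 4. Leaving out each library gave 670 to 841 and 597 to 758 at 1 h, 3509 to 3749 and 3671 to 4139 at 6 h for GLP-1 and BMS-21, and 0 to 0 between agents at each time, so the 2 genes at 6 h were lost whichever library was left out. Over time the range was 6396 to 6482 in Control, 1955 to 2224 for the GLP-1 response and 2483 to 2846 for the BMS-21 response. Among the members depth limits Gprc5a most, at 9 reads over 4 Control libraries at 6 h.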
